A study of Bos taurus with 7 samples.

Results

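The genes described here build and move cilia. They were chosen by name: all array probes whose deposited gene name starts with IFT, BBS, DNAH, DNAI or RSPH followed by a digit, with DNAL, or with TEKT followed by a digit, and in addition TTC18 (now called CFAP70) and WDR93. This gave 33 genes with 1 probe each, of 14960 genes on the array, and 22 of them were bright enough to be compared between groups. RNA came from the rumen epithelium, the stratified lining of the forestomach, of 7 Holstein calves, and was read on single-colour Agilent arrays with 1 array per animal. The HAY group (3 calves, numbers 9, 10 and 13) was provided with forage and the CON group (4 calves, numbers 8, 11, 12 and 14) was not. The design states a time of 3 weeks after weaning. The series concerns forage, calf starter and rumen pH around weaning, so all calves share breed and tissue. Their exact age and the cells that each piece of epithelium held are not stated in the labels.

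A cilium is a microtubule-based projection of the cell surface. Most vertebrate cell types can form a single immotile primary cilium, which serves as an antenna for Hedgehog and other signals, whereas multiciliated cells of the airways, oviduct and brain ventricles carry many motile cilia that beat. Intraflagellar transport (IFT) trains carry building blocks into both kinds, and the BBSome, a coat-like complex of BBS proteins, rides on them to move membrane receptors. Outer and inner dynein arms, radial spokes, the central pair and nexin links serve beating, and tektins are filament proteins inside the microtubule doublets of motile cilia and sperm tails. The rumen lining is a keratinised stratified epithelium and is not known as a multiciliated tissue.

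The readout of each gene is the signal of a 60-base oligonucleotide. The starts of the probes that carry the widest differences between the feeding groups, and of the BBS probe with the widest spread between calves, are shown so that each signal can be traced to its target. Each line gives the first 30 bases of the probe, 5′ to 3′, as deposited, in lower case throughout because no part of them was singled out.
CFAP70: gaatggctattgttactggatgtttcactg
WDR93: ctggctattgaggttttgtcttctgtgaat
DNAH7: caaggaacactggattggacggggtgtagc
TEKT4: agtccctgcgcaacctggaggacacgcgca
TEKT2: ttgaaaatggaagggatggggggagcggag
BBS7: tggaaattctggacagttatgaccaaaatg
In the coordinates of UMD_3.1 that the files give, the CFAP70 probe lies at chr28:29463286-29463345 on the minus strand and the WDR93 probe at chr21:21557624-21557683 on the plus strand. The DNAH7 probe lies at chr2:84773409-84773468 on the minus strand. The 2 tektin probes, both on the minus strand, lie at chr25:871269-871328 for TEKT4 and at chr3:110312381-110312440 for TEKT2. The BBS7 probe lies at chr6:3410777-3410836 on the plus strand. Whether a probe lies in an exon or UTR of that build was not analysed here. The 33 probes shared no run of 25 bases with any other probe on the array, while 51 of all 15008 probes did share one. The GC content of the 18 cilium probes seen on all 7 arrays ranged from 35 to 60% with a median of 42.5%, and that of the 9 seen on none from 35 to 55% with a median of 45%, so both sets cover a like range around the 45% median of all probes.

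Across the arrays between 81.5 and 84.5% of probes were well above background, the scanner software's call that a spot is clearly brighter than its surroundings. The median processed signal was 212 to 236 intensity units on the HAY arrays and 178 to 224 on the CON arrays. All 7 arrays lay on 1 slide, with the HAY arrays in slide row 1 and the CON arrays in slide row 2, so row and diet cannot be told apart in any comparison below. The labelled tissue was checked against keratinocyte markers: 13 of the 14 on the array, among them KRT5, KRT14, TP63, DSG3 and IVL, were well above background on all 7 arrays, and the exception, KRT4, was so on none of the 3 HAY arrays and on all 4 CON arrays. All values below are log2 signals relative to the 75th percentile of the same array, so that 0 equals that percentile, and they are compared between calves for the same probe only. The precision is limited by the number of arrays.

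The genes of the name rule that primary and motile cilia share were detected throughout, and much of the motile machinery was not. IFT22 and all 7 BBS genes, 8 of 8, were well above background on all 7 arrays. Shared genes with other names were not all so: the IFT subunit IFT70A and the IFT dynein chain DYNC2LI1 were on none, and the IFT subunit TTC26 and the kinesin KIF17 on some. Of the 25 genes that belong to motile cilia, 10 were well above background on all 7 arrays, 6 on some and 9 on none. Over all 33 genes that makes 18 on all 7 arrays (54.5%) and 9 on none (27.3%), beside 11641 of 15008 probes (77.6%) on all 7 and 1673 (11.1%) on none for the whole array. The number of cilium genes above background per array was 21, 21 and 24 for HAY calves 9, 10 and 13, against 20, 18, 18 and 21 for CON calves 8, 11, 12 and 14. With the scanner software's less strict call, a signal positive and significant against background, 24 of the 33 were detected on all 7 arrays. Of all 15008 probes, 13114 were so detected.

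The undetected genes fall across the motor and the spokes. Of the 7 dynein heavy chains, the motor subunits, the inner arm chain DNAH6 was detected in every calf. DNAH2, DNAH9, DNAH11 and DNAH14 were detected in no calf, and of these DNAH9 and DNAH11 are the heavy chains of the outer arm. The inner arm chain DNAH3 was detected in HAY calves 10 and 13 and CON calves 8 and 14. DNAH7, also of the inner arm, was detected in all 3 HAY calves and in CON calf 14 alone. Of the outer arm intermediate chains, which anchor the motor, DNAI1 was seen in every calf and DNAI2 in none. The light chains DNAL1 and DNAL4 were seen in every calf, and DNALI1, a light intermediate chain of the inner arm, in HAY calves 9 and 13 and CON calves 8 and 14. Among the radial spoke genes, RSPH1, RSPH4A and RSPH9, which are among the genes of the spoke head, were detected in no calf. The stalk gene RSPH3 was detected in all. So were RSPH6A and RSPH10B, whose place in the spoke was not analysed here, so whether detection divides head from stalk was not settled. Among the tektins, TEKT2 and TEKT4 were detected in every calf and TEKT5 in none. TEKT1 and TEKT3 were each detected in HAY calf 13 and in no other animal. CFAP70, a regulator of the outer dynein arm, was detected in every calf, and WDR93, a WD repeat protein, in all 3 HAY calves and in no CON calf.

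**Figure D1:**
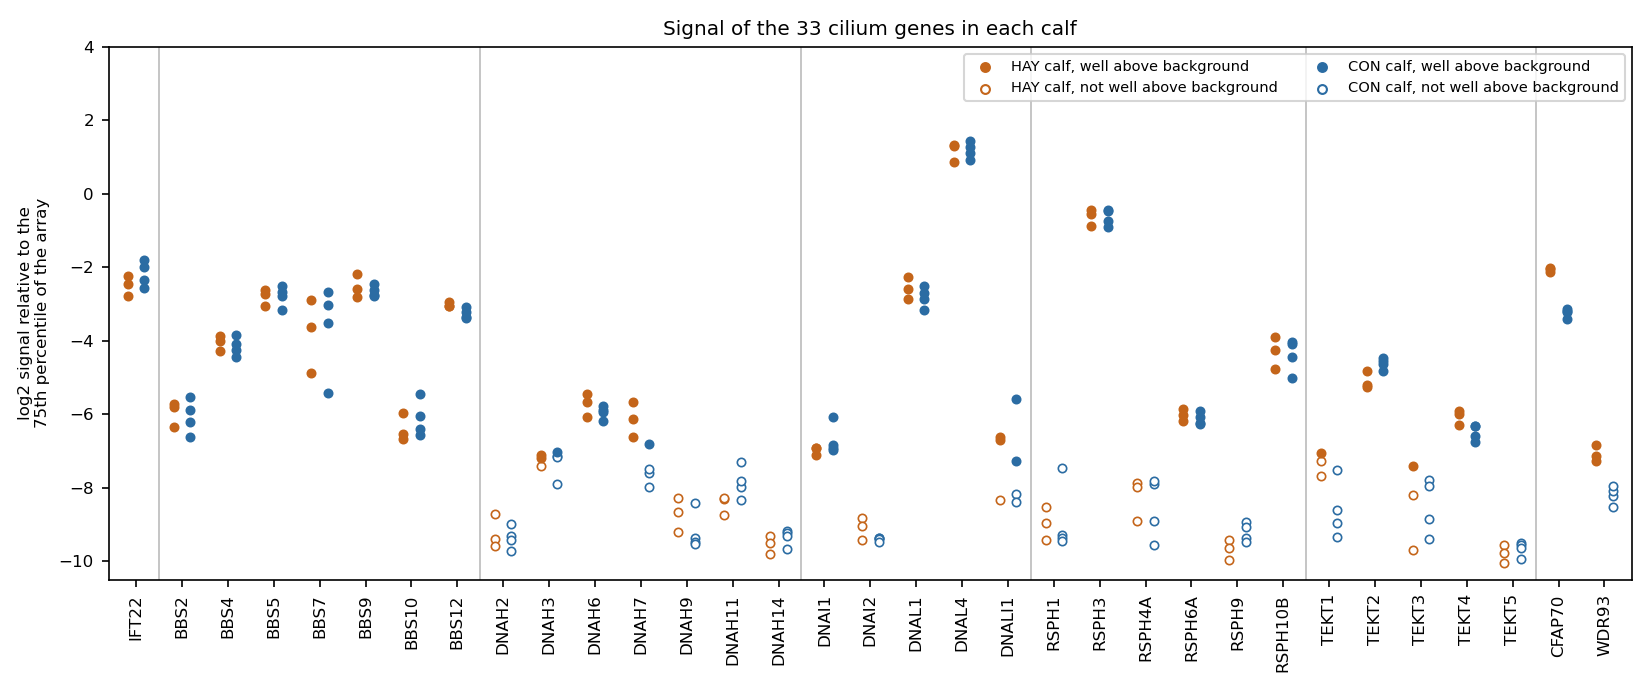
Signal of the 33 cilium genes (horizontal axis, ordered by role, vertical lines between roles) as log2 relative to the array's 75th percentile (vertical axis), 1 point per calf, HAY left of CON. Filled points are well above background and open points are not: the IFT22 and BBS points are all filled, 9 of the 25 motile genes have open points only, and WDR93 has filled HAY and open CON points.

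Other markers of multiciliated cells gave a similarly mixed picture. Of 12 such markers on the array, 6 were well above background on all 7 arrays, beside 77.6% of all probes. They were FOXJ1, the transcription factor that drives motile ciliogenesis, DEUP1, DNAAF1, DRC1, CAPS and CCDC40. CCDC39, PIFO, SNTN and TPPP3 were so on none. SPAG6 was above background on 1 HAY array and no CON array, and ZMYND10 on 2 HAY arrays and no CON array. The summed linear signal of the list, in units of the array's 75th percentile, was 1.75 to 2.01 in HAY and 1.25 to 2.10 in CON, and CAPS alone made up 87.4 to 92.3% of it. The other 11 markers summed to 0.160 to 0.179 in HAY and 0.122 to 0.161 in CON. None of its 6 tested members was past an unadjusted p of 0.05.

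The comparison of HAY with CON asks which cilium genes differ with forage provision. CFAP70, WDR93, DNAH7 and TEKT4 had higher values in HAY and TEKT2 had lower ones, each at an unadjusted limma p under 0.05, and no cilium gene was past the threshold of 0.05 after Benjamini-Hochberg adjustment over all 12569 genes tested. CFAP70 came closest, with a 2.25-fold higher mean in HAY and an adjusted p of 0.0584. CFAP70 and WDR93 were named with earlier results on these arrays known. WDR93 and DNAH7 entered the comparison through their detection in HAY. The p values of these genes are therefore a description only. The other 17 tested genes, among them IFT22 and all BBS genes, were past neither threshold. In whole tissue, fewer cells of a type and less RNA per cell cannot be told apart.

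The counts need the whole array beside them. Of all genes tested, 1 (0.00796%) was past the adjusted threshold. At an unadjusted p under 0.05 there were 1753 of 12569 (13.9%), of which 852 (6.78%) were higher and 901 (7.17%) lower in HAY. The cilium genes had 5 of 22 (22.7%), 4 higher and 1 lower. That count includes DNAH7 and WDR93, which entered the comparison through their detection in HAY, and CFAP70 and WDR93, which were named with earlier results known, so it cannot be read as an excess. Without CFAP70 and WDR93 it was 3 of 20 (15.0%), near the share over all genes. Among the cilium genes detected on all 7 arrays the count was 3 of 18 (16.7%), beside 13.9% of the 11610 genes so detected, and 2 of 17 (11.8%) without CFAP70. With no filter on dim probes it was 6 of 33 (18.2%), beside 12.5% of 14960 genes, and 4 of 31 (12.9%) without CFAP70 and WDR93. Groups did not overlap for CFAP70, WDR93, DNAH7, TEKT4 and BBS12, 5 of 22, beside 11.8% of all genes, and the same limits hold for this count. It was 3 of 20 without CFAP70 and WDR93 and 3 of 18 among genes detected on all 7 arrays. Of the 22 differences 15 were above 0 and 7 below, beside 6855 above and 5714 below over all genes. Their median was 0.10, against 0.03 over all genes, and it was 0.03 without HAY calf 9, 0.06 without HAY calf 10 and -0.02 with normexp, another background correction that lifts dim signals by an offset.

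CFAP70 and WDR93 are in the list by name because earlier results on these arrays were known, so their values are a description. CFAP70 had log2 signals of -2.14, -2.05 and -2.01 in HAY calves 9, 10 and 13, against -3.21, -3.14, -3.20 and -3.40 in CON calves 8, 11, 12 and 14. The HAY calves lay within 0.12 of each other and all far above the CON calves. In the scanner's own units this was 428, 454 and 543 in HAY and 200.2, 212, 166 and 185 in CON. The HAY mean was -2.07 ± 0.06 (SD, n = 3) and the CON mean -3.24 ± 0.12 (SD, n = 4). The log2 difference of 1.17 had an SE of 0.13 and a 95% interval of 0.87 to 1.47, and its p was the fifth smallest of the 12569 genes. Its within-group SD of 0.10 was lower than that of most genes (3.58th percentile). Leaving out 1 calf at a time gave differences of 1.11 to 1.20, with adjusted p values of 0.0496 (without CON calf 14) to 0.408 (without HAY calf 10). Quantile normalization gave 1.24 with an adjusted p of 0.0410, and normexp background correction gave 0.92 with an adjusted p of 0.0568. CFAP70 thus passed the threshold in 2 of the alternatives and missed it in the main analysis.

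WDR93 was dim. Its log2 signals were -6.84, -7.26 and -7.15 in HAY calves 9, 10 and 13, against -8.54, -8.23, -8.10 and -7.94 in CON calves 8, 11, 12 and 14. The groups did not overlap, and the CON values are not well above background, so they mark a ceiling rather than a level. The mean of -7.08 in HAY was at least 1.24-fold that in CON when the lowest signal well above background on each CON array stands in for the CON level. The measured HAY mean was -7.08 ± 0.22 (SD, n = 3) and the measured CON mean -8.20 ± 0.25 (SD, n = 4), a log2 difference of 1.12 (SE 0.19, limma adjusted p = 0.164). Normexp adds an offset of 50 units to signals that here were 12.3 to 16.4 units in HAY and 4.99 to 7.99 in CON, and gave a difference of 0.04.

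DNAH7 had the widest fitted difference of the 3 tested dynein heavy chains. Its log2 signals were -6.11, -5.67 and -6.61 in HAY calves 9, 10 and 13, against -7.61, -7.50, -7.99 and -6.80 in CON calves 8, 11, 12 and 14. The lowest HAY calf, 13, and the highest CON calf, 14, were 0.19 apart. Calf 14 was the only one of the 4 CON calves well above background, so the other 3 CON values are ceilings and the fitted difference has no measured CON level behind it in those calves. With the signals taken as they stand, the fitted log2 difference was 1.34 (SE 0.32, 95% interval 0.59 to 2.09, limma adjusted p = 0.216). It was 1.11 to 1.58 when 1 calf was left out and 0.13 with normexp. DNAH6, the heavy chain seen in every calf, had -6.06, -5.44 and -5.68 in HAY against -5.92, -5.89, -5.77 and -6.17 in CON. Its groups overlapped, with a difference of 0.21 and a 95% interval of -0.22 to 0.65. DNAH3, at 6.40 to 15.1 units, differed by 0.08 (SE 0.23). The 3 tested heavy chains thus all had differences above 0, with a median of 0.21 that was -0.05 with normexp.

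The 2 tested tektins had differences of opposite sign. TEKT4 had log2 signals of -5.99, -5.91 and -6.28 in HAY calves 9, 10 and 13, against -6.33, -6.59, -6.32 and -6.75 in CON calves 8, 11, 12 and 14. All HAY calves were above all CON calves, by 0.04 at the nearest pair. The difference was 0.44 (SE 0.17, limma adjusted p = 0.325). TEKT2 had -4.82, -5.19 and -5.26 in HAY, against -4.46, -4.54, -4.63 and -4.83 in CON. HAY calf 9 lay just above CON calf 14, so the groups overlapped. The difference was -0.48 (SE 0.16, limma adjusted p = 0.296). TEKT4 lost its unadjusted p under 0.05 without HAY calf 9 or 10 or CON calf 11 or 14, where p was up to 0.117, and its difference was 0.07 with normexp. TEKT2 lost it without HAY calf 10 or 13 or CON calf 8 or 11, where p was up to 0.0778, and its difference was -0.30 with normexp. TEKT1, which was not tested, had -7.28, -7.67 and -7.04 in HAY and -9.35, -8.96, -8.60 and -7.52 in CON. HAY calf 13 alone was well above background, so no fold is given.

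**Figure D2:**
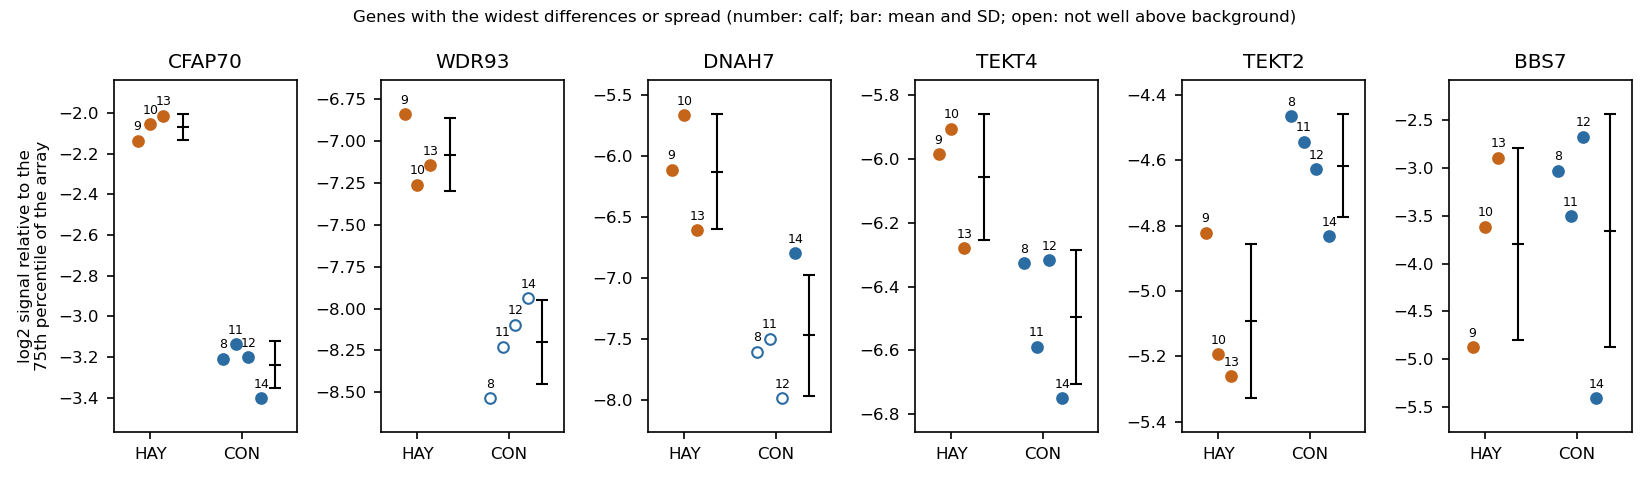
Log2 signal relative to the array's 75th percentile (vertical axis, a scale of its own per panel) of 6 genes in each calf, HAY left of CON, with calf numbers, filled where well above background and open where not, and the mean ± SD as a bar. CFAP70, WDR93, DNAH7 and TEKT4 do not overlap between groups, TEKT2 overlaps by 1 pair of calves, and BBS7 spans a wide range in both groups (1.98 in HAY and 2.73 in CON).

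The IFT and BBS genes, which serve primary cilia as well, had no member past either threshold. IFT22, a small GTPase-like subunit of the IFT-B train, had log2 signals of -2.24, -2.78 and -2.44 in HAY and -2.33, -2.55, -1.98 and -1.79 in CON. The groups overlapped, with a difference of -0.32 and a 95% interval of -0.85 to 0.21. The BBSome subunit BBS5 had -2.73, -2.62 and -3.06 in HAY and -2.50, -2.66, -2.79 and -3.16 in CON, a difference of -0.03. BBS9, another BBSome subunit, had -2.19, -2.58 and -2.81 in HAY and -2.45, -2.62, -2.76 and -2.77 in CON, a difference of 0.13. The BBSome subunits BBS2 and BBS4 each differed by 0.10. BBS10 and BBS12 are chaperonin-like proteins that assemble the BBSome. BBS10 differed by -0.27 (SE 0.30). BBS12 had -3.04, -3.06 and -2.95 in HAY and -3.37, -3.22, -3.36 and -3.08 in CON, close but not overlapping, with a difference of 0.24 (SE 0.13, limma adjusted p = 0.454). The median difference of the 7 BBS genes was 0.10, with differences from -0.27 to 0.24, and it turned to -0.09 without CON calf 14, -0.02 without HAY calf 9 and -0.08 with normexp.

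BBS7 varied far more between calves than between groups. Its log2 signals were -4.88, -3.62 and -2.90 in HAY calves 9, 10 and 13, against -3.03, -3.51, -2.67 and -5.41 in CON calves 8, 11, 12 and 14. HAY calf 9 and CON calf 14 were low and the rest high, a 6.65-fold range over the 7 calves. The within-group SD of 1.14 lay at the 97.5th percentile of all genes tested, whose median was 0.27. The group difference of -0.14 had a 95% interval of -1.81 to 1.53. DNALI1 spread as widely, with -6.62, -8.33 and -6.69 in HAY and -7.27, -8.17, -8.39 and -5.59 in CON, a 6.98-fold range and a within-group SD of 1.16. Some of these DNALI1 values are not well above background. The median within-group SD of the cilium genes was 0.25.

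The remaining motor and spoke genes were past neither threshold either. DNAL4, a dynein light chain, had 1.34, 1.32 and 0.86 in HAY and 1.10, 1.43, 1.28 and 0.93 in CON, with a difference of -0.01 and a 95% interval of -0.45 to 0.42. DNAL1, an outer arm light chain, had -2.27, -2.58 and -2.86 in HAY and -2.50, -2.71, -2.86 and -3.16 in CON, a difference of 0.24 (SE 0.21). DNAI1 differed by -0.28 (SE 0.23), with signals of 12.2 to 27.2 units and CON calf 8 well above the other 6 calves. RSPH3, which also docks protein kinase A in the spoke stalk, had -0.56, -0.44 and -0.87 in HAY and -0.48, -0.45, -0.73 and -0.89 in CON. Its difference was 0.02 with a 95% interval of -0.39 to 0.43. RSPH10B had -3.88, -4.24 and -4.77 in HAY and -4.43, -4.02, -4.08 and -5.01 in CON, and RSPH6A differed by 0.10 (SE 0.15). For DNAL4 and RSPH3 the intervals leave room for a change of at most about 0.45 on the log2 scale in either direction, and for DNALI1 the interval of -1.56 to 1.84 leaves room for a large one.

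**Figure D3:**
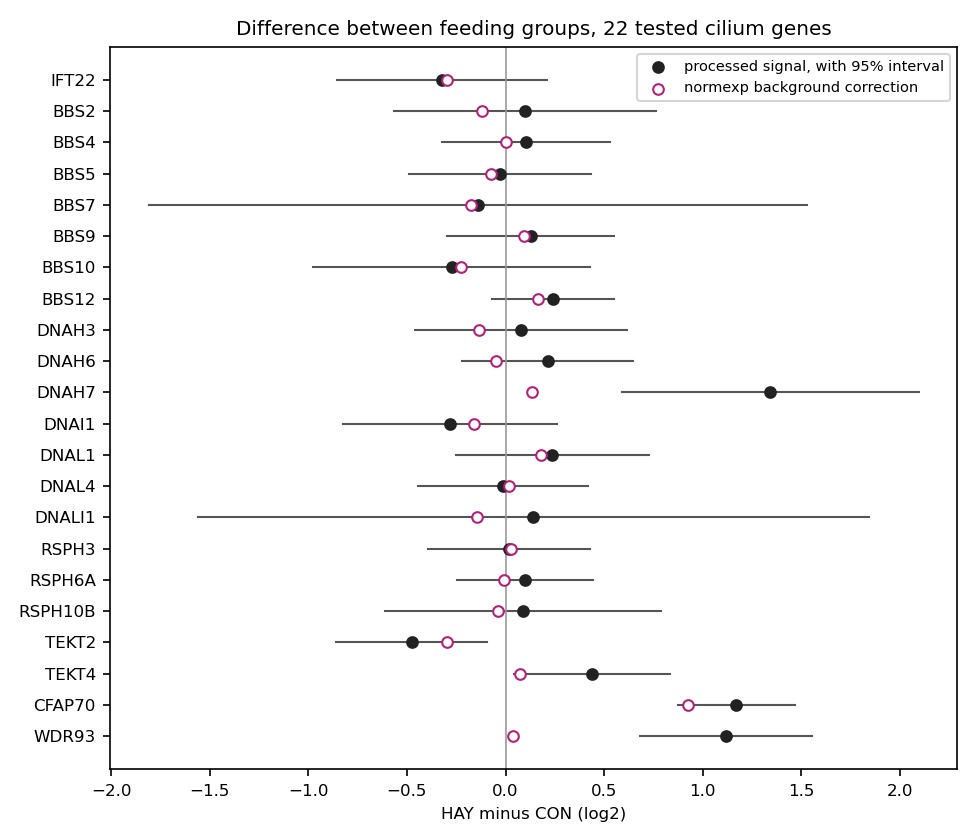
HAY minus CON on the log2 scale (horizontal axis) of the 22 tested cilium genes (rows), as filled points with the limma 95% interval and, as open points, with normexp background correction. The filled points of CFAP70, WDR93, DNAH7 and TEKT4 lie right of 0 and that of TEKT2 left of 0, and the open points of WDR93, DNAH7 and TEKT4 lie close to 0.

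The rest of the ciliary machinery, in 14 further lists by role, gave few differences. Of 208 genes on the array, 162 (77.9%) were well above background on all 7 arrays and 24 (11.5%) on none, close to the whole array. Of the 174 tested, 6 (3.45%) were past the unadjusted threshold, 2 higher and 4 lower in HAY, beside 13.9% of all genes. None was past the adjusted one, with a lowest limma adjusted p = 0.262. The median difference was 0.09, with 110 above and 64 below 0, beside 0.03, 6855 and 5714 over all genes. The docking complex of the dynein arms and the microtubule inner proteins held much of what was undetected. In these, 4 of 7 and 8 of 22 were above background on no array. Of the transition zone genes 22 of 24, and of the Hedgehog genes 14 of 16, were above it on all 7 arrays, and the rest on some. Of the ciliary GTPases and membrane cargo, 17 of 21 were above background on all 7 arrays, and ADCY3, GPR161 and MCHR1 on none. No IFT subunit named by other symbols passed (7 tested, median -0.21), and neither did the BBSome partners (8 tested, median 0.08) nor the dynein arm assembly factors (12 tested, 10 above 0, median 0.21).

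KIF9, a kinesin of the central pair, was the further cilium gene with the smallest p. It had log2 signals of -3.93, -4.06 and -3.99 in HAY and -4.63, -4.77, -4.36 and -4.30 in CON. The groups did not overlap, with a difference of 0.52 (SE 0.16, limma adjusted p = 0.262) that was 0.26, past neither threshold, with normexp. CEP97, which caps centrioles and restrains cilium formation, had a difference of 0.43. It was 0.21 with normexp and lost its unadjusted call there and without HAY calf 9 or 10 or CON calf 8, 12 or 14 (p up to 0.148). The 4 with lower values in HAY were RFX2, a transcription factor of ciliary genes (-0.57), DYNLRB1, a light chain of cytoplasmic dyneins including the IFT motor (-0.54), EVC2, a Hedgehog signalling protein at the cilium base (-0.47), and LRRC34 (-0.90). DYNLRB1 was well above background on 1 HAY and 4 CON arrays and EVC2 on 1 HAY and 2 CON arrays, so their sizes rest largely on signals near background. With normexp the differences were -0.22 for DYNLRB1, -0.20 for EVC2 and -0.34 for LRRC34. RFX2 lost its unadjusted call with median scaling, with quantile normalization and when any 1 calf other than CON calf 12 was left out (p up to 0.145, without HAY calf 10). LRRC34 lost it without HAY calf 10 or 13 or CON calf 8, 11 or 12 (p up to 0.118), EVC2 without HAY calf 9 (0.0667), and DYNLRB1 without HAY calf 9 or 10 (up to 0.0520). RFX2 had -3.30, -3.69 and -3.46 in HAY and -2.59, -2.88, -3.49 and -2.69 in CON, and CON calf 12 lay among the HAY calves. FOXJ1 was dim, with -6.63, -6.70 and -7.02 in HAY and -6.75, -6.86, -6.59 and -6.90 in CON. Its difference was -0.01, and -0.15 with normexp. Of the Hedgehog pathway, which signals through the primary cilium, the transducer SMO differed by -0.27, the receptor PTCH1 by -0.00, and the transcription factors GLI1 and GLI2 by -0.28 and 0.20, none at an unadjusted p under 0.05.

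Marker genes of other tissue layers differed between the same calves. All 11 smooth muscle markers had lower values in HAY, 8 of them at an unadjusted p under 0.05, beside 7.17% of all genes, with a median difference of -1.26 and a summed signal of 15.5 to 36.3 in HAY and 36.6 to 85.7 in CON. All 13 tested fibroblast markers were lower, 8 of them past that threshold, median -1.47, with sums of 16.5 to 75.5 in HAY and 50.8 to 241 in CON. All 11 endothelial markers were lower, 3 past it, median -0.76. Of 10 leukocyte markers 8 were lower, 7 past it, median -1.04, with sums of 6.03 to 6.84 in HAY and 10.3 to 16.2 in CON. The 7 include CD3E, which was well above background on 3 CON arrays and no HAY array. It entered the comparison only through CON. Keratinocyte markers summed to 568 to 685 in HAY and 445 to 645 in CON, a sum weighted to the brightest of them. Of the 14 tested, 10 were higher and 4 lower in HAY, median 0.19. Only KRT4 was past the unadjusted threshold, with a difference of -2.32 and no HAY array well above background. KRT4 too entered the comparison only through CON. Of 7 nerve and glia markers 6 were higher in HAY, median 0.21. No marker passed the adjusted threshold. The part of these layers in the values of CFAP70, WDR93, DNAH7, TEKT4 or TEKT2 was not tested.

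**Figure D4:**
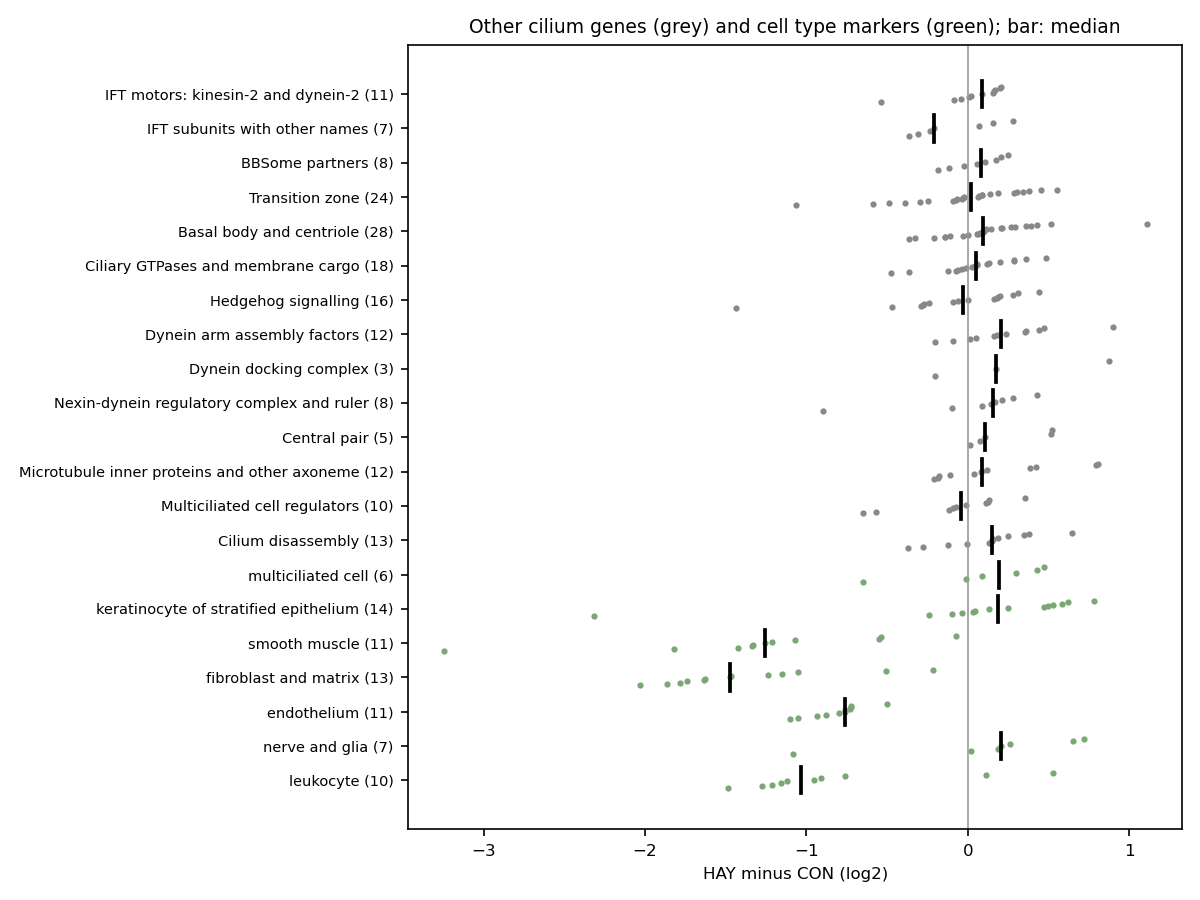
HAY minus CON on the log2 scale (horizontal axis) for each tested gene of the 14 other cilium lists (grey points) and 7 lists of cell type markers (green points), with the number tested in brackets and a bar at the list's median. The medians of the cilium lists lie between -0.21 and 0.21, and those of the smooth muscle, fibroblast, endothelium and leukocyte markers between -1.47 and -0.76.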

How the data were processed

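Per the labels' protocols, 500 ng of total RNA per calf was amplified and labelled with Cy3. The deposited scanner files hold spot intensity on a linear scale, background-subtracted by Agilent Feature Extraction 9.5, per the submitters' processing notes. A deposited table of the whole series gives log2 values, which matched the log2 probe signal minus the array's 75th percentile (Pearson r 1.0000000, SD of the difference at most 0.000352), which settled their scale and direction and showed no centring of genes. The medians of its HAY columns were -3.14, -3.16 and -3.23, and those of its CON columns -3.11, -3.11, -3.11 and -3.13.

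The 536 control spots and outlier spots were left out. The log2 values of repeated spots were averaged, and each array was scaled to its 75th percentile. RefSeq accessions (assembly ARS-UCD2.0, names only) named 11680 probes and updated 754 symbols. Of several probes the one with the highest mean stood for the gene. Probes well above background on at least 3 arrays were tested (12604 probes, 12569 genes) with limma 3.58.1 in R 4.3.3 and Benjamini-Hochberg adjustment at 0.05. The fit was tested on simulated data. A fold called "at least" compares the brighter group's mean with a ceiling for the dimmer one: per array, whichever is larger of the probe's own signal and the dimmest signal well above background. It covers no sampling error.

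The genes, lists and tests were chosen with earlier results of these data known. Values per calf were given for genes at an unadjusted p under 0.05, CFAP70, WDR93, the 2 brightest of each role, genes detected throughout 1 group and nowhere in the other, and, chosen after their values were seen, BBS7, BBS12, DNALI1 and TEKT1. Of other lists, up to 3 genes with an unadjusted p under 0.05 and a few fixed regulators were named. One gene that this rule selected is not reported here. RFX3, GLI3 and the promoters of these genes were not analysed here. Alternatives changed the background correction, scaling, filter, probe choice, outliers, slide column, variance prior and the calves included.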

Additional observations from a re-analysis of the deposited data

Results flagged for a closer look

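DNAI1, an intermediate chain of the outer dynein arm, stood out in 1 animal. Its log2 signal relative to the array's 75th percentile was -6.09 in CON calf 8, while the other 3 CON calves lay between -6.97 and -6.84 and the HAY calves between -7.11 and -6.92. The gap of CON calf 8 to its nearest group member, as a share of the whole range of the group, was 0.853, above Dixon's critical value for 4 samples. Of 22 cilium genes looked at in CON this was 1, and chance gives about 1 in 20.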

How the results depend on the processing

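No paired analysis was possible because the calf numbers are not shared between groups. The count of all genes past the adjusted threshold was 1, against 4 with quantile normalization, 2 with slide column as a blocking factor (this takes CON calf 8 out of the comparison) and 1 to 21 when 1 calf was left out. The 21 came without CON calf 14, and HAY calves 9 and 13 and CON calf 8 also moved it (7, 2 and 4). All genes at an unadjusted p under 0.05 numbered 982 to 2342 when 1 calf was left out, lowest without HAY calf 13 or 10 (982 and 986). The 5 cilium genes at an unadjusted p under 0.05 became 2 with normexp background correction, 3 among probes detected on all 7 arrays and 3 to 5 with 1 calf left out (3 without HAY calf 10 or CON calf 11). The count past the adjusted threshold, 0, became 1 (CFAP70) with quantile normalization and was 0 to 1 with 1 calf left out. With normexp the median difference of the cilium genes was -0.0226, that of the heavy chains -0.0491, that of CFAP70 and WDR93 0.48, that of the ciliary GTPases -0.0227 and that of the dynein arm assembly factors 0.0622. The ciliary GTPases had 0.05 in the main analysis, 0.12 with median scaling, 0.11 with quantile normalization and 0.0122 to 0.0703 with 1 calf left out. The multiciliated cell regulators had -0.04, and 0.0630 with no filter on dim probes. Leaving out 1 calf gave medians of -0.35 to 0.16 for the other IFT subunits, -0.0441 to 0.0845 for Hedgehog genes and -0.0269 to 0.28 for microtubule inner proteins, each highest without HAY calf 13, and 0.0789 to 0.40 for the central pair, whose median was also over 1.5 times higher without HAY calf 10 or CON calf 14. The causes were not tested. CFAP70, WDR93, DNAH7, TEKT4 and TEKT2 kept their direction in every alternative in which they were tested. The promoter motifs planned at the outset were not run. Signals below about 20 units lie near background, and the size of a difference there depends on the background correction. Among such signals were those of WDR93, DNAH3 and FOXJ1 in both groups and of DNAH7 in CON. Most DNAI1 and DNALI1 values, and those of TEKT4 in most CON calves, were also among them. The medians of the BBS, radial spoke, intermediate and light chain and tektin genes each changed sign in some alternatives.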

Other observations

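A few probes carry older names that the selection by deposited name does not catch but whose present symbols belong to the same families. DNAI3, an intermediate chain of the inner dynein arm deposited as WDR63, was above background in every calf. It averaged -2.98 in HAY and -3.82 in CON, a log2 difference of 0.84 (SE 0.30, limma unadjusted p = 0.0241, adjusted p = 0.300). DNAI3 is in none of the counts of cilium genes above. IFT25, IFT70B and RSPH14, deposited as HSPB11, TTC30B and RTDR1, were above background in every calf and differed by 0.16, 0.28 and 0.28. DNAI7 and IFT70A, deposited as CASC1 and TTC30A, were above background on no array.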
